A study of Mus musculus with 23 samples.

Results

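The genes that build and run the DNA replication fork were followed across a course of Smoothened inhibition in mouse medulloblastoma. The set has 47 listed genes, from the subunits that mark origins to the cyclins that drive S phase. Members were taken through every probe set whose only platform symbol is a listed gene. Of the 47 genes, 46 had such a probe set, against 18193 genes on the array, and Chaf1a had none of its own. The 46 genes own 89 of the 45101 probe sets, of which 87 passed the filter on dim probe sets, and each gene is read here by its brightest probe set. All 46 brightest probe sets were tested, so no member was lost to the filter.

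Every array holds RNA from about 100 mg of a frozen subcutaneous tumour in a Harlan nu/nu mouse, a host that lacks a thymus. The tumours grew from medulloblastoma cells of Ptch+/-HIC+/- mice, placed in the right flank without passage in culture, and dosing began about 10 days later. Tumours labelled resistant, treated with NVP-LDE225 at 160 mg/kg (3 arrays) and at 40 mg/kg (3 arrays), carry no stated time. Sensitive tumours were taken 4, 8, 24 and 48 h into NVP-LDE225 at 40 mg/kg, with 3 arrays at each time. Controls were 2 tumours given vehicle for 4 h and 3 tumours given vehicle with no stated time. NVP-LDE225 blocks Smoothened, the membrane protein that passes the Hedgehog signal on, and all groups, controls included, carry the same tumour genotype. A second label calls 6 of these 12 arrays of sensitive tumours resistant, and the sample description was followed. Nothing in the labels says that replicates are separate animals, so p-values speak for the spread between these samples, which may be technical.

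As background, a cell copies its genome by loading helicases at origins that the origin recognition complex marks, switching them on at the start of S phase with Dbf4-dependent Cdc7 kinase, Cdc45 and the GINS complex, and then copying both strands with DNA polymerases held on the template by the sliding clamp PCNA. Cyclin E opens S phase and cyclin A carries it through into G2. Granule neuron progenitors, the cell type of origin of Hedgehog medulloblastoma, proliferate in response to Hedgehog signalling. E2F factors switch on many S phase genes, while the CHR element serves many genes that peak in G2 and mitosis.

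Gli1, a direct Hedgehog target, served as a check of treatment. It fell by 2.42 ± 0.35 (log2 difference ± SE) at 4 h and by 4.62 ± 0.35 at 8 h against 4 h vehicle (limma with Benjamini-Hochberg adjustment, adjusted p = 0.0011 and 1.7e-08). In the resistant arrays it was not called at 40 mg/kg (0.76, adjusted p = 0.17) or at 160 mg/kg (-0.10, adjusted p = 0.93). Of the granule lineage markers, Atoh1 averaged a signal of 4101 and Zic1 of 4389 in vehicle tumours, so the labelled tumour type had its defining genes. Within groups, arrays correlated at 0.945 to 0.978 over tested probe sets, and the actin 3' over 5' signal ratio (log2), which speaks to RNA integrity, spanned 0.84 to 1.83. The number of arrays limits the precision. Fold differences below are in log2 of signal plus 16, called at an adjusted p under 0.05 in limma over all 35069 tested probe sets. Counts at an unadjusted p under 0.05 are given without the share of all genes at that level, so they have no background.

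**Figure D1:**
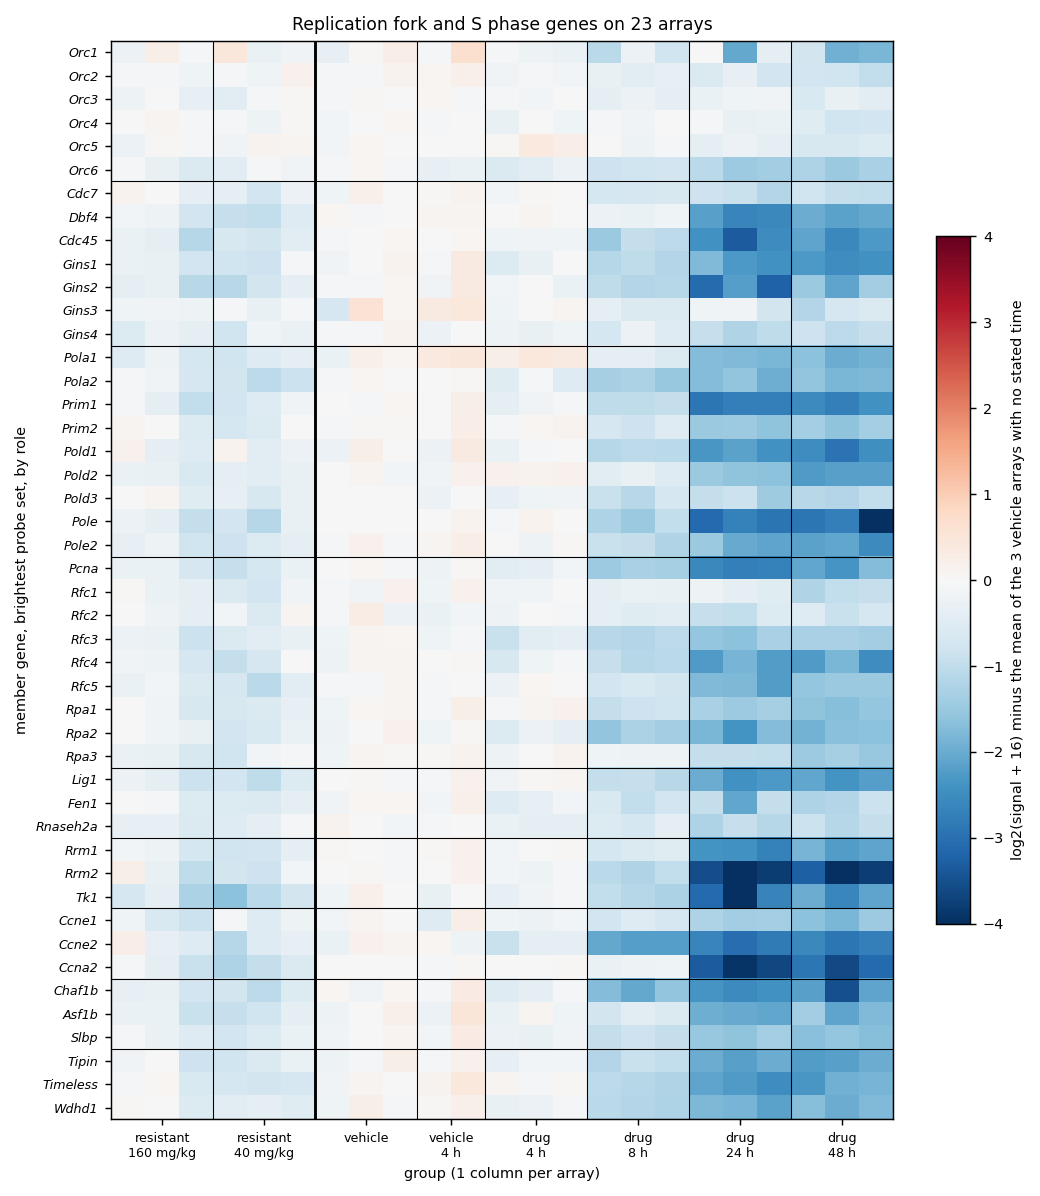
Each row is a member gene (brightest probe set), grouped by role with black lines, and each column is 1 of the 23 arrays. Colour gives log2(signal + 16) minus the mean of the 3 vehicle arrays with no stated time: the resistant and 4 h columns stay pale, the 8 h columns turn blue in most roles other than origin recognition, and the 24 h and 48 h columns are the darkest, down to -3.78 for the Rrm2 mean at 24 h.

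After 4 h of the drug no member was called against the 4 h vehicle. The 46 differences had a median of -0.175, against 0.012 over all 14946 tested genes, and 42 of them lay below 0. Limma found 0 of 46 at the adjusted threshold and 3 at an unadjusted p under 0.05, which were Rfc3 (-0.48), Slbp (-0.33) and Pola2 (-0.39). Across all genes 0.348% were called, 52 of 14946 in either direction. Ccne2, the cyclin E2 gene, had signals of 204.6, 299.5 and 299.9 in 4 h drug tumours, against 416.7 and 338.9 in 4 h vehicle tumours. Those groups did not overlap, but the difference of -0.48 ± 0.24 (SE) was not called (adjusted p = 0.76). Cyclin A2 (Ccna2) overlapped between the groups, with 2311, 2308 and 2316 in 4 h drug tumours and 2211 and 2315 in 4 h vehicle tumours.

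By 8 h, 27 of the 46 members were lower in drug tumours than in 4 h vehicle tumours, 0 were higher and 19 were not called. Across all genes 2.49% were lower at this threshold, 372 of 14946. All 46 differences lay below 0, with a median of -0.916 against 0.036 over all tested genes. No vehicle array is labelled 8 h, so time since dosing differs between these groups. In bulk tumour RNA, fewer cells of a type and less RNA per cell cannot be told apart. Of markers of other cell types, limma called 0 of 11 macrophage, 0 of 10 skeletal muscle, 0 of 10 endothelial and 0 of 9 fibroblast genes. In these lists 0 had an unadjusted p under 0.05. Of 9 neuronal genes 1 was called, and it was higher. Across all genes 4.61% were called in either direction, so 0 or 1 call in lists this short is near that share. The summed macrophage signal was nevertheless 1755 to 1952 in 8 h drug tumours, against 1349 to 1553 in 4 h vehicle tumours. The sums of neuronal markers (5603 to 6151 in 8 h drug tumours, against 4023 to 4336 in 4 h vehicle tumours) and of fibroblast and matrix markers (7516 to 9732 in 8 h drug tumours, against 5977 to 6934 in 4 h vehicle tumours) did not overlap either. Granule lineage markers summed to 18644 to 20383 in 8 h drug tumours and 15638 to 15991 in 4 h vehicle tumours, and the part of these cells in the result was not tested.

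The largest falls at 8 h were in Ccne2 and in Chaf1b, a gene of histone deposition. Ccne2 signals were 81.8, 72.0 and 73.0 in 8 h drug tumours, against 416.7 and 338.9 in 4 h vehicle tumours. The 8 h mean was 20.0% of the control mean, and the difference was -2.10 ± 0.24 (adjusted p = 4.7e-06). Chaf1b, the p60 subunit of the chromatin assembly factor that places new histones behind the fork, read 94.6, 72.5 and 106.6 in 8 h drug tumours and 330.8 and 441.8 in 4 h vehicle tumours. The fall of 1.91 ± 0.28 was called by the brightest probe set (adjusted p = 0.00019) but not by the mean of its probe sets (-0.81, adjusted p = 0.11). Slbp, which binds the stem-loop of histone mRNAs and lets them be processed and translated in S phase, fell by 1.03 ± 0.14, while Asf1b, another histone chaperone, was not called (-0.71, adjusted p = 0.099).

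Fork protection genes fell in 3 of 3 cases. Timeless, whose product pairs with Tipin to couple helicase and polymerases, read 222.6, 210.7 and 201.7 in 8 h drug tumours, against 531.7 and 652.2 in 4 h vehicle tumours. The groups were far apart (-1.41 ± 0.18, adjusted p = 1.8e-05). Wdhd1, the And-1 protein that ties polymerase alpha to the helicase, fell by 1.29 ± 0.16 (adjusted p = 2.6e-05), and Tipin by 1.05 ± 0.19 (adjusted p = 0.0013).

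Among polymerases and primase, 8 of 9 genes fell and the median was -1.095. Pola2, the regulatory subunit of polymerase alpha, read 114.1, 122.3 and 98.0 in 8 h drug tumours and 308.9 and 327.8 in 4 h vehicle tumours. Its difference was -1.40 ± 0.18 (adjusted p = 3.1e-05), and the mean of its probe sets gave -0.72 (adjusted p = 0.081). Prim1, the catalytic subunit of primase, which lays down RNA primers, fell by 1.10 ± 0.18. Pole, the catalytic subunit of the leading strand polymerase, read 229.0, 189.8 and 275.1 in 8 h drug tumours, against 547.3 and 621.4 in 4 h vehicle tumours (-1.29 ± 0.32, adjusted p = 0.024). Pold2, an accessory subunit of polymerase delta, was the member of the group that was not called (-0.43, adjusted p = 0.056).

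Of the clamp, loader and single-strand binding genes, 6 of 9 fell. Pcna read 2179, 2415 and 2394 in 8 h drug tumours and 5150 and 6197 in 4 h vehicle tumours, a difference of -1.27 ± 0.17 (adjusted p = 3.2e-05). Of the replication protein A trimer, which coats single-stranded DNA, Rpa2 (-1.35) and Rpa1 (-0.95) fell, while Rpa3 was not called (-0.29, adjusted p = 0.46). Of the clamp loader, Rfc3, Rfc4 and Rfc5 fell by 0.99, 1.08 and 0.70, while the large subunit Rfc1 (-0.33) and Rfc2 (-0.24) were not called. The other probe sets of Rfc2 gave -0.73 (adjusted p = 0.067) and -0.56 (adjusted p = 0.26). Whether the subunits of 1 complex differ from each other was not tested. Lig1, the ligase that seals Okazaki fragments, fell by 1.02 ± 0.17 (adjusted p = 0.00057). The flap nuclease gene Fen1 (-0.83, adjusted p = 0.053) and Rnaseh2a, a subunit of the RNase that removes primer RNA (-0.53, adjusted p = 0.053), lay just outside the threshold.

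In helicase activation 4 of 7 genes fell, and in nucleotide supply 2 of 3. Gins1 read 206.4, 226.7 and 202.4 in 8 h drug tumours, against 453.1 and 622.1 in 4 h vehicle tumours (-1.27 ± 0.22, adjusted p = 0.00096), and Cdc45, Gins2 and Cdc7 fell by 1.21, 1.21 and 0.76. Dbf4, the regulatory subunit that switches on Cdc7, read 749.5, 744.4 and 778.8 in 8 h drug tumours and 964.0 and 955.5 in 4 h vehicle tumours. Its groups did not overlap, yet the difference of -0.34 ± 0.16 was not called (adjusted p = 0.35). Of the ribonucleotide reductase subunits, which make deoxynucleotides, Rrm2 fell by 1.18 and Rrm1 by 0.69. Thymidine kinase Tk1 was not called (-0.99 ± 0.37, adjusted p = 0.18).

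By the brightest probe set, neither the origin recognition genes nor cyclin A2 were called at 8 h. Limma called 0 of the 6 Orc genes, 4 of them had an unadjusted p under 0.05, and their median was -0.413. Orc2 (-0.49, adjusted p = 0.052) lay just outside the threshold, and Orc6 had -0.50 (adjusted p = 0.084). Orc4 read 378.5, 363.5 and 395.5 in 8 h drug tumours and 389.2 and 406.1 in 4 h vehicle tumours, with overlap between the groups. Orc1 had the largest difference of the 6 (-0.99 ± 0.44, adjusted p = 0.3), on signals of only 23.6 to 55.5 in 8 h drug tumours and 64.2 to 112.4 in 4 h vehicle tumours. Its dimmer probe set was called (-1.37 ± 0.32, adjusted p = 0.014), and so was the mean of both (-1.18, adjusted p = 0.021), so Orc1 is uncertain. Ccna2 read 1862, 1947 and 2001 in 8 h drug tumours, against 2211 and 2315 in 4 h vehicle tumours (-0.22 ± 0.20, adjusted p = 0.72). Cyclin E1 (Ccne1) was not called either (-0.53, adjusted p = 0.21). The roles' differences from each other were not tested.

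The 8 h count rests in part on 1 control. Of the 27 calls, 12 held whichever of the 5 arrays was left out: Pola2, Prim1, Pole2, Pcna, Rpa1, Rpa2, Lig1, Ccne2, Chaf1b, Slbp, Timeless and Wdhd1. Without the 4 h vehicle replicate 2, those 12 were the only calls, and the other 15 had adjusted p from 0.056 (Tipin) to 0.25 (Gins2). Leaving out any other array kept 23 to 26 calls, though Pole, Prim2 and Rfc5 were called in only 1 of the 5 fits. Within the run of sample identifier numbers that holds all 8 h arrays and 1 of the 4 h vehicles (replicate 2), 25 members were called. That control is a single array, the one on which the count rests, and its spread is taken from the other groups. Where a member had other tested probe sets (41 over 30 genes), 26 of them had the same call as the brightest, 13 were not called where it was, 2 were called where it was not, and 0 went the other way.

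The step between 4 h and 8 h of the drug, which uses no vehicle array, called 19 members lower and 0 higher. Across all genes 0.602% were lower in this step. Ccne2 read 81.8, 72.0 and 73.0 at 8 h, against 204.6, 299.5 and 299.9 at 4 h (-1.61 ± 0.21, adjusted p = 0.00017). Pcna (-1.06) and Timeless (-1.16) fell too, with adjusted p of 0.00029 and 0.00022, and so did Lig1 (adjusted p = 0.00069). The calls that held with any array left out were 8: these 4 genes with Pola2, Rpa1, Rpa2 and Wdhd1. The count was 12 without 4 h replicate 2, 8 without 4 h replicate 3, 11 without 8 h replicate 1 and 9 without 8 h replicate 3.

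Other genes of replication that are not members were also lower at 8 h, and mitosis genes were called at 24 h. In a list of 24 licensing, checkpoint and nucleotide genes, 23 were measured and 16 were lower at 8 h (median -1.019). Cdc6, which helps load the helicase, fell by 2.50 ± 0.22 and its partner Cdt1 by 2.13 ± 0.17. In a list of 22 mitosis genes, 21 were measured and limma called 0 at 8 h (1 at an unadjusted p under 0.05), with a median of -0.085. At 24 h all 21 were lower, with a median of -3.507. Both lists were drawn up with earlier results of these arrays known, so their direction is no independent evidence.

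Promoter sequences from RefSeq (GRCm38.p6), 250 bases before to 50 after each start, were matched for 38 of the 47 members. They were searched on both strands for an E2F consensus word (TTTCCCGC, TTTCGCGC, TTTGCCGC or TTTGGCGC), for the CCAAT box (CCAAT) and for the CHR element (TTTGAA), and no matches of different motifs overlapped in the members. An E2F word lay in 9 of 38 member genes (23.7%), against 2.6% of all 27025 genes with a window and 3.8% of the 14453 that also have a probe set of their own. A CCAAT box was in 55.3% of members, 41.1% of all genes and 42.0% of those with a probe set. A CHR element was in 18.4% of members, which lies between the 20.2% of all genes and the 15.7% of those with a probe set. Each match only describes letters in the window. The 9 genes with an E2F word had a median difference of -0.985 at 8 h against 4 h vehicle and the 28 measured genes without one -0.791. At later times the order was the other way: the medians with and without the word were -1.499 and -1.847 at 24 h and -1.492 and -1.741 at 48 h against vehicle, and -0.401 and -0.723 for the step between 8 h and 24 h. For the CHR element the medians with and without it were -0.757 and -0.987 at 8 h against 4 h vehicle. Against vehicle they were -1.58 and -1.77 at 24 h and -1.768 and -1.69 at 48 h. For the step between 8 h and 24 h they were -1.165 and -0.667. E2F words also lay in Orc3 and Gins3, not called at 8 h, and CHR elements in Cdc45 and Cdc7, which fell then. A link between words and timing was not tested. The promoters below are examples only. Rfc3 and Pole2 fell at 8 h, Orc1 had probe sets that differed in their call then, and Dbf4 fell between 8 h and 24 h. Capitals mark the matched words, and positions are those of a word's first base, with the start site as +1.
Rfc3 (chr5:151651159-151651458, minus strand, E2F words at -10 and +1, CCAAT box at -229): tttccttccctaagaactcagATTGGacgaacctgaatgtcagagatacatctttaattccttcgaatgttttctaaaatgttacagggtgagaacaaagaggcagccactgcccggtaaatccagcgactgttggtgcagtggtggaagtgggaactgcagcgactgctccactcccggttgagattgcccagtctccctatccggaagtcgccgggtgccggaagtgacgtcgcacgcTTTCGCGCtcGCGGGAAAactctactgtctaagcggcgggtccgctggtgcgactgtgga
Pole2 (chr12:69228141-69228440, minus strand, E2F word at +11): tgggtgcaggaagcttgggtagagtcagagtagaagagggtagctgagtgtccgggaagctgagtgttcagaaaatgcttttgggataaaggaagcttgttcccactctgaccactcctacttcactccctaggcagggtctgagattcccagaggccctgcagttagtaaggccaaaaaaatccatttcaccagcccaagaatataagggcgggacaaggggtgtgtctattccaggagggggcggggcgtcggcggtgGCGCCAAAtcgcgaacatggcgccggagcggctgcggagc
Orc1 (chr4:108579204-108579503, plus strand, E2F word at -27, CCAAT boxes at -120 and -66): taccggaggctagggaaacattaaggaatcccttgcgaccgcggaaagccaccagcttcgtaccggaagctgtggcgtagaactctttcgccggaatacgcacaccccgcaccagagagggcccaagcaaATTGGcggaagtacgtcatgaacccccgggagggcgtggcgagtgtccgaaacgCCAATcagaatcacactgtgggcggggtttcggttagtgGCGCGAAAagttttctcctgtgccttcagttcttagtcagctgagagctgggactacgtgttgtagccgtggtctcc
Dbf4 (chr5:8422667-8422966, minus strand, CHR element at -3): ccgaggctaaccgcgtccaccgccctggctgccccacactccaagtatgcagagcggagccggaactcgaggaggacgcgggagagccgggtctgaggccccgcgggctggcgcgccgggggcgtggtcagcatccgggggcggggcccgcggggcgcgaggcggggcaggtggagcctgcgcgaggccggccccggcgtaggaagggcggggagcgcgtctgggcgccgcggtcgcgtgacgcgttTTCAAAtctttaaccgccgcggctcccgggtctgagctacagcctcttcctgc

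At 24 h, 41 of 46 members were lower than in vehicle tumours with no stated time, 0 were higher and 5 were not called. Across all genes 14.4% were lower and 19.7% higher. The member median was -1.828, against 0.105 over all tested genes. The largest falls were in nucleotide supply and cyclin A. Rrm2 read 239.6, 175.7 and 198.5 in 24 h drug tumours, against 2963, 3095 and 2923 in vehicle tumours (-3.78 ± 0.22, adjusted p = 4.2e-12), which left 6.84% of the vehicle mean. Ccna2 read 210.4, 135.2 and 166.7 in 24 h drug tumours and 2234, 2304 and 2252 in vehicle tumours (-3.63 ± 0.18, adjusted p = 5.1e-13). Tk1 fell by 3.48 ± 0.33 (adjusted p = 1.7e-08), with 44.6, 4.4 and 66.5 in 24 h drug tumours, which is near or below the dim end of the array, and 446.3, 582.2 and 500.0 in vehicle tumours.

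Every role held called genes at 24 h. Polymerases and primase were lower in 9 of 9 genes, with Pole at -2.91 ± 0.29 and Prim1 at -2.78 ± 0.16. In helicase activation 6 of 7 fell, among them Gins2 (-2.84 ± 0.25) and Cdc45 (-2.76 ± 0.22). Their signals in 24 h drug tumours were low, at 17.0, 45.0 and 13.9 for Gins2 and 39.2, 13.8 and 35.6 for Cdc45. Of these, 17.0, 13.9 and 13.8 lay under the 40th percentile of their arrays, so the size of these differences depends on the offset of 16. Pcna read 991.8, 879.2 and 911.8 in 24 h drug tumours, against 6090, 6260 and 5628 in vehicle tumours, so that 15.5% of the vehicle mean was left. Clamp, loader and single-strand binding genes fell in 8 of 9 cases, and Okazaki processing, nucleotide supply, cyclins, histone factors and fork protection each in 3 of 3 measured genes. The 5 genes not called were Orc1 (-0.82), Orc3 (-0.20), Orc4 (-0.21), Gins3 (-0.35) and Rfc1 (-0.35). By the mean of their probe sets, Orc1 (-1.02), Orc4 (-0.34), Gins3 (-0.67) and Rfc1 (-0.39) were called too, with adjusted p from 0.0037 (Rfc1) to 0.014 (Orc4). Orc6 (-1.31 ± 0.14) and Orc2 (-0.56 ± 0.12) fell, as did Orc5 (-0.32), whose call was lost without vehicle replicate 2 (adjusted p = 0.13) and in 3 of the other 5 fits that left out an array. The other 40 calls held in every such fit, including the one without the 24 h array of another identifier run.

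Several marker lists had moved by 24 h as well. Summed macrophage marker signal was 3253 to 5264 in 24 h drug tumours, against 1405 to 2268 in vehicle tumours, and 7 of 11 genes were higher. All 9 measured fibroblast genes, 8 of 9 neuronal, 8 of 10 skeletal muscle and 5 of 10 endothelial genes were higher. Whether tumour or other cells gave the neuronal signal was not tested. Skeletal muscle sums varied by sample and overlapped, at 8462 to 12308 in 24 h drug tumours and 140 to 9955 in vehicle tumours. Summed granule lineage markers were higher too in 24 h drug tumours, at 22303 to 25499 against 15286 to 17069 in vehicle tumours. The actin 3' to 5' ratio was 1.66 ± 0.22 in 24 h drug tumours and 1.04 ± 0.039 in vehicle tumours (SD, n = 3 each). The part of these in the members' falls was not tested.

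**Figure D2:**
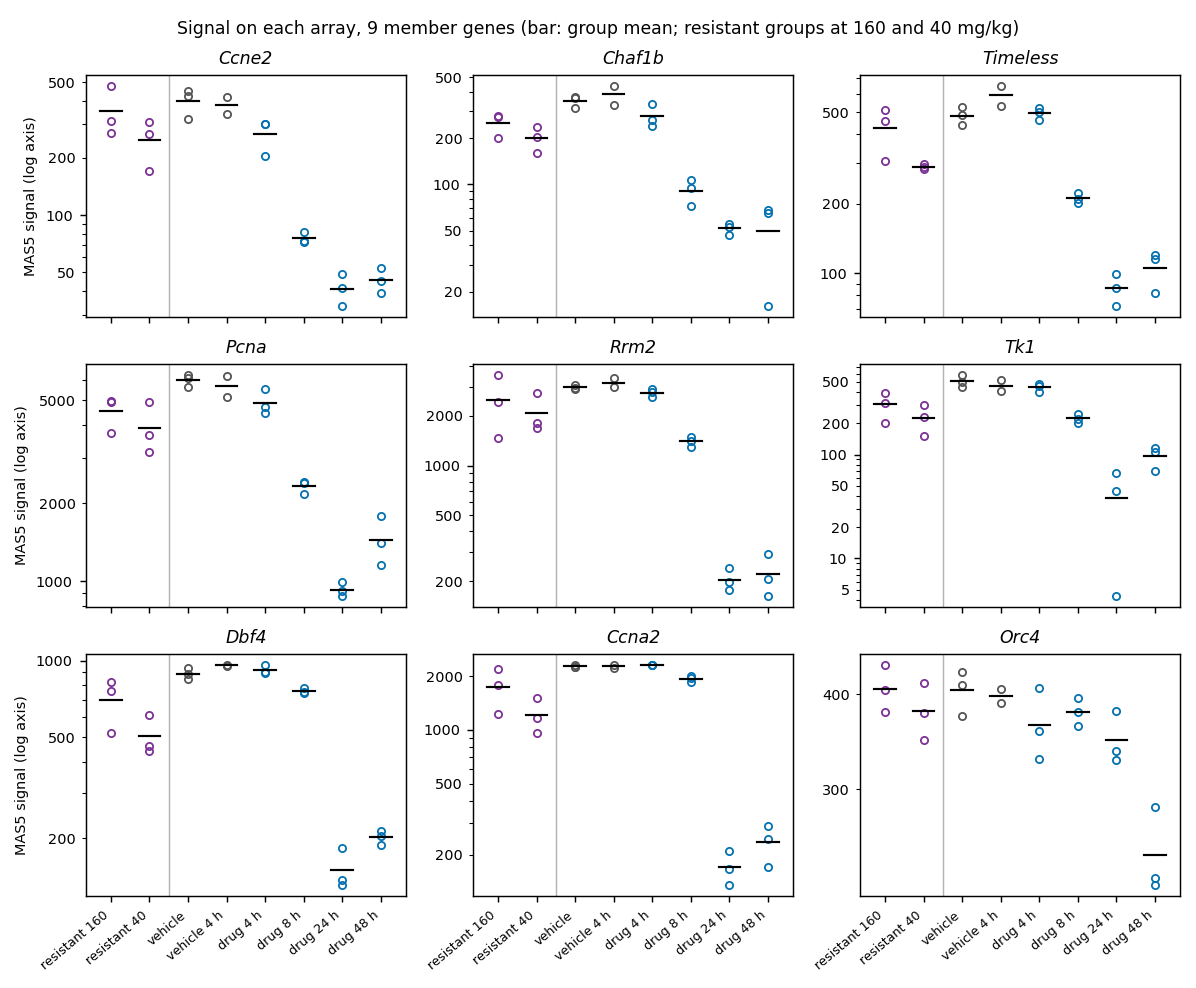
MAS5 signal on a log axis for 9 member genes, 1 panel each, with circles for arrays and black bars for group means; resistant groups stand left of the line and vehicle, 4 h vehicle and 4, 8, 24 and 48 h of the drug right of it. Ccne2, Chaf1b, Timeless and Pcna are already low at 8 h, Ccna2 and Dbf4 lie closer to the controls at 8 h and are low at 24 h, and Orc4 is lowest at 48 h.

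Between 8 h and 24 h, 32 of 46 members fell further and 0 rose, against 8.62% of all genes lower and 8.28% higher. The largest steps were in Ccna2, Rrm2, Tk1 and Dbf4, of which only Rrm2 had been called at 8 h. Ccna2 read 210.4, 135.2 and 166.7 at 24 h, against 1862, 1947 and 2001 at 8 h (-3.40 ± 0.18, adjusted p = 4.3e-12). Dbf4 read 182.8, 130.5 and 136.9 at 24 h and 749.5, 744.4 and 778.8 at 8 h (-2.23 ± 0.14, adjusted p = 5.1e-11). Rrm2 (-2.69) and Tk1 (-2.35) also dropped further. For the genes with the largest falls at 8 h the step was -0.69 for Ccne2 (adjusted p = 0.03) and -0.65 for Chaf1b, which was not called (adjusted p = 0.09). The Ccne2 step was lost in 5 of 6 fits that left out an array, with adjusted p up to 0.12 without 24 h replicate 2. Only 1 of the 24 h arrays shares an identifier run with the 8 h arrays. With the run as a block 21 members were called, and the steps of Ccna2 (-3.11), Dbf4 (-1.96), Rrm2 (-2.47) and Tk1 (-1.98) were still called, while that of Ccne2 was not (-0.50, adjusted p = 0.39).

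**Figure D3:**
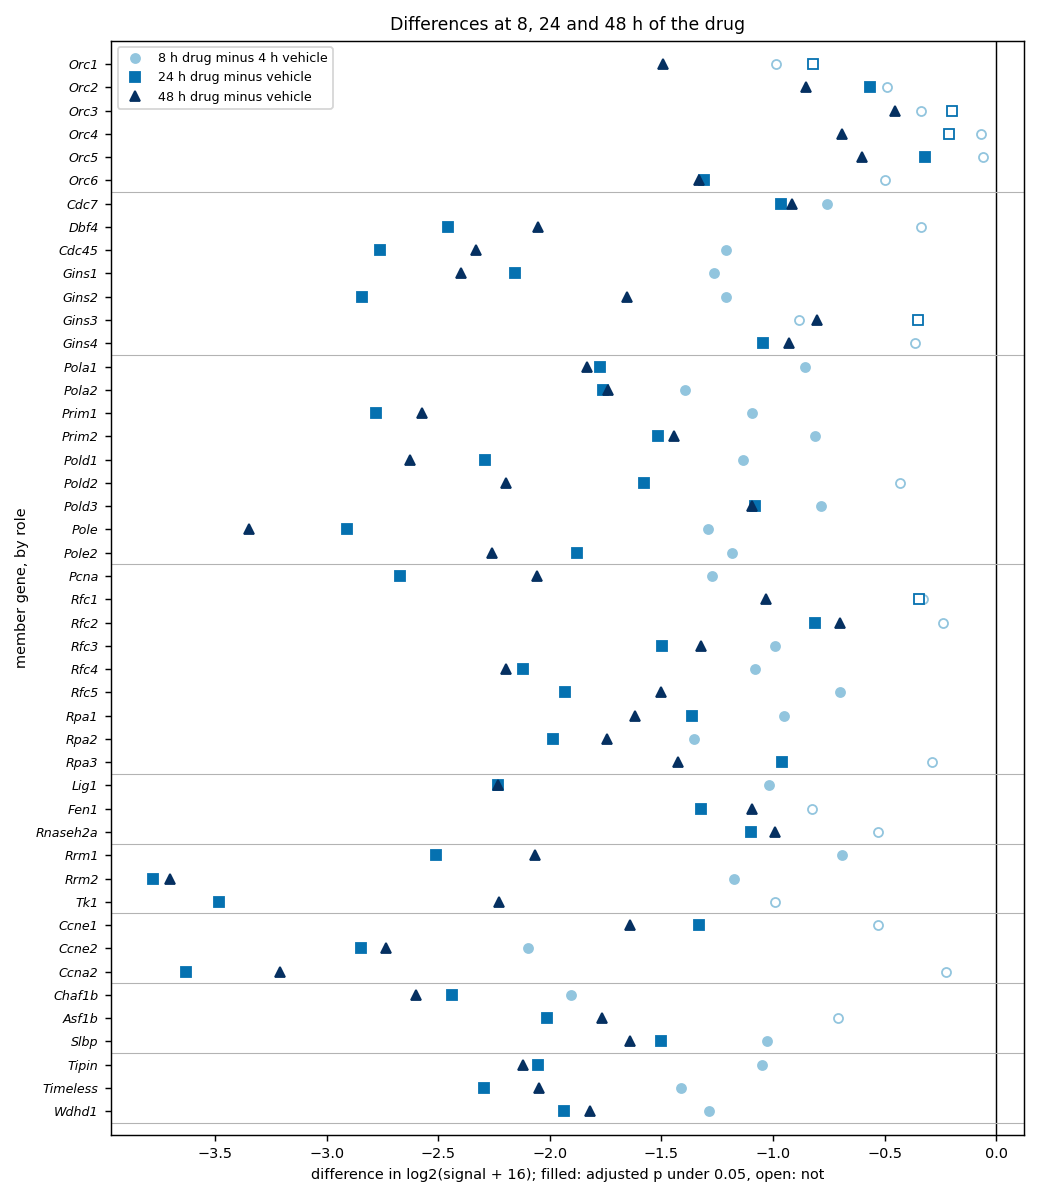
Difference in log2(signal + 16) for each member gene, by role from top to bottom: circles for 8 h drug minus 4 h vehicle, squares for 24 h drug minus vehicle and triangles for 48 h drug minus vehicle, filled where the adjusted p was under 0.05. The Orc genes lie nearest to 0 as a group, and Ccna2 runs from -0.22 at 8 h to -3.63 at 24 h.

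At 48 h all 46 members were lower than in vehicle tumours, against 21.3% of all genes lower and 25.2% higher. The median was -1.741 and that of all tested genes 0.056. Rrm2 (-3.70 ± 0.22), Pole (-3.35 ± 0.29) and Ccna2 (-3.21 ± 0.18) had the largest differences. Ccna2 read 290.5, 171.1 and 246.1 in 48 h drug tumours, against 2234, 2304 and 2252 in vehicle tumours. The smallest difference was in Orc3, with 212.6, 264.5 and 238.5 in 48 h drug tumours and 315.5, 345.7 and 333.4 in vehicle tumours (-0.45 ± 0.12, adjusted p = 0.0047). By the mean of its probe sets Orc3 was not called (-0.26, adjusted p = 0.1). Gins3 was the member whose groups overlapped (-0.80, adjusted p = 0.0096), and its call was lost without vehicle replicate 2 (adjusted p = 0.1), while 45 calls held in every fit that left out an array. In the list of other replication genes, 22 of 23 were lower and Pold4, a small subunit of polymerase delta, was higher (1.22 ± 0.21, adjusted p = 5.1e-05).

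Several marker lists also held far more signal at 48 h. Macrophage markers summed to 22636 to 30430 in 48 h drug tumours, against 1405 to 2268 in vehicle tumours, with 11 of 11 genes higher. Fibroblast and matrix markers summed to 29420 to 42032 in 48 h drug tumours and 3341 to 7707 in vehicle tumours, with 9 of 9 higher. Neuronal markers summed to 16364 to 17533, against 3095 to 3222 in vehicle tumours, and whether tumour or other cells gave this signal was not tested. Summed granule lineage markers read 16827 to 20243 in 48 h drug tumours and 15286 to 17069 in vehicle tumours, although Atoh1 alone averaged 1528 in 48 h drug tumours against 4101 in vehicle tumours. None of these levels was used to adjust the members, and their part in the falls was not tested.

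Between 24 h and 48 h most members were not called: 6 were higher, 4 were lower and 36 were not called. Across all genes 11.9% were higher and 13.2% lower. That is 25% in either direction, and the members' share is no larger. The calls that held with any array left out were Gins2 and Pcna, which rose, and Orc4, Pold2 and Rfc1, which fell. Gins2, a subunit of the GINS helicase cofactor, read 85.4, 49.5 and 90.6 at 48 h, against 17.0, 45.0 and 13.9 at 24 h (1.19 ± 0.25, adjusted p = 0.0014). Pcna read 1400, 1159 and 1779 at 48 h and 991.8, 879.2 and 911.8 at 24 h (0.61 ± 0.15, adjusted p = 0.0043). Pold2 read 134.9, 144.0 and 146.1 at 48 h, against 242.4, 220.8 and 215.6 at 24 h (-0.62 ± 0.11, adjusted p = 0.00025). Orc4 (-0.48) and Rfc1 (-0.69) had not been called at 24 h against vehicle by the brightest probe set. By the mean of its probe sets, Orc4 was not called (-0.24, adjusted p = 0.099).

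The other calls of that step were fragile. Tk1 (1.26) lost its call without 24 h replicate 2, whose signal was 4.4 (0.66, adjusted p = 0.081). Rrm1 (0.44), Rfc5 (0.43), Dbf4 (0.41) and Rpa3 (-0.47) lost theirs in at least 3 of 6 such fits, with adjusted p up to 0.16, 0.25, 0.19 and 0.084 without 48 h replicate 1, 24 h replicate 3, 24 h replicate 2 and 48 h replicate 4. The count was 6 without 48 h replicate 1 and 6 without 48 h replicate 4. In the mitosis list 8 of 21 genes were higher at 48 h than at 24 h. The actin 3' to 5' ratio was 0.92 ± 0.067 at 48 h and 1.66 ± 0.22 at 24 h (SD, n = 3 each), the macrophage sum was 22636 to 30430 at 48 h and 3253 to 5264 at 24 h, and their part was not tested.

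In resistant tumours at 40 mg/kg, 18 of 46 members were lower than in vehicle tumours, 0 were higher and 28 were not called, with a median of -0.521 against 0.022 over all tested genes. Across all genes 4.46% were lower. Ccna2 read 955.7, 1164 and 1512 in 40 mg/kg resistant tumours, against 2234, 2304 and 2252 in vehicle tumours (-0.92 ± 0.18, adjusted p = 0.0026). Dbf4 read 461.4, 440.4 and 612.0 in 40 mg/kg resistant tumours and 934.0, 846.1 and 886.9 in vehicle tumours (-0.81 ± 0.14, adjusted p = 0.00088). Timeless was tight within the resistant group, at 289.8, 283.1 and 297.3, against 437.5, 524.8 and 484.3 in vehicle tumours (-0.70 ± 0.16, adjusted p = 0.0065). By role the calls were 0 of 6 in origin recognition, 1 of 7 in helicase activation, 4 of 9 in polymerases and primase, 5 of 9 in clamp, loader and single-strand binding, 1 of 3 in Okazaki processing, 2 of 3 in nucleotide supply, 1 of 3 in cyclins, 2 of 3 in histone factors and 2 of 3 in fork protection.

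Which array was included mattered to this count. The 7 calls that held with any array left out were Dbf4, Pola2, Rfc5, Lig1, Rrm1, Ccna2 and Timeless. By the mean of its probe sets Pola2 was not called (-0.44, adjusted p = 0.21). Counts were 7 without resistant replicate 1, 11 without resistant replicate 2, 9 when either replicate 2 or replicate 3 of vehicle was left out. Tk1 had the largest difference (-1.16 ± 0.33, adjusted p = 0.033), but its call was lost in 5 of 6 fits that left out an array, with adjusted p up to 0.16 without resistant replicate 1. Pcna (-0.63) lost its call without resistant replicate 1 as well (adjusted p = 0.065). In the mitosis list 19 of 21 genes were lower, and in the list of other replication genes 13 of 23.

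In resistant tumours at 160 mg/kg limma called 0 of 46 members against vehicle, while 21 had an unadjusted p under 0.05. At the adjusted threshold 1.45% of all genes were called in either direction, which is no background for the unadjusted count. The median was -0.332 against 0.008 over all tested genes, and 45 of 46 differences lay below 0. In 22 members every resistant array lay below every vehicle array, as in 9.45% of all genes. Ccna2 read 2186, 1777 and 1222 in 160 mg/kg resistant tumours, against 2234, 2304 and 2252 in vehicle tumours (-0.43 ± 0.18, adjusted p = 0.3). Rrm2 read 3535, 2438 and 1472 in 160 mg/kg resistant tumours and 2963, 3095 and 2923 in vehicle tumours, so the resistant arrays lay on both sides of the controls. Without resistant replicate 1 the count was 4.

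Among the resistant arrays, the 3 with the lowest member means had the highest sums of macrophage and of fibroblast and matrix markers. This held for neutrophil markers too, but not for granule lineage, endothelial, neuronal, skeletal muscle or lymphocyte markers. Granule lineage sums were 14990 to 17539 in 40 mg/kg and 16940 to 17755 in 160 mg/kg resistant tumours. In vehicle tumours they were 15286 to 17069. Neuronal sums were 4082 to 6156 in 40 mg/kg and 4277 to 6000 in 160 mg/kg resistant tumours, against 3095 to 3222 in vehicle tumours. At 160 mg/kg, replicate 3 had the lowest mean member level (8.474 in log2) and the highest summed macrophage signal (8860), while replicate 1 had 8.956 and 2437 and replicate 2 had 8.908 and 5376. At 40 mg/kg, replicates 1 and 2 had 8.483 and 8.506 with sums of 9709 and 8230, and replicate 3 had 8.829 with 5956. Vehicle arrays had 8.993 to 9.167 with sums of 1405 to 2268. Fibroblast and matrix markers summed to 4593, 10781 and 20452 in the 160 mg/kg replicates 1 to 3 and to 13524, 17959 and 13051 in the 40 mg/kg replicates 1 to 3, against 3341 to 7707 in vehicle tumours. Against vehicle, 10 of 11 macrophage genes were higher in 40 mg/kg and 6 of 11 in 160 mg/kg resistant tumours, and fibroblast genes were higher in 6 of 9 and 0 of 9. Across all genes 5.39% were higher at 40 mg/kg and 1.19% at 160 mg/kg, so 0 of 9 is near the share at 160 mg/kg. The part of these markers' cells in the members' level was not tested.

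**Figure D4:**
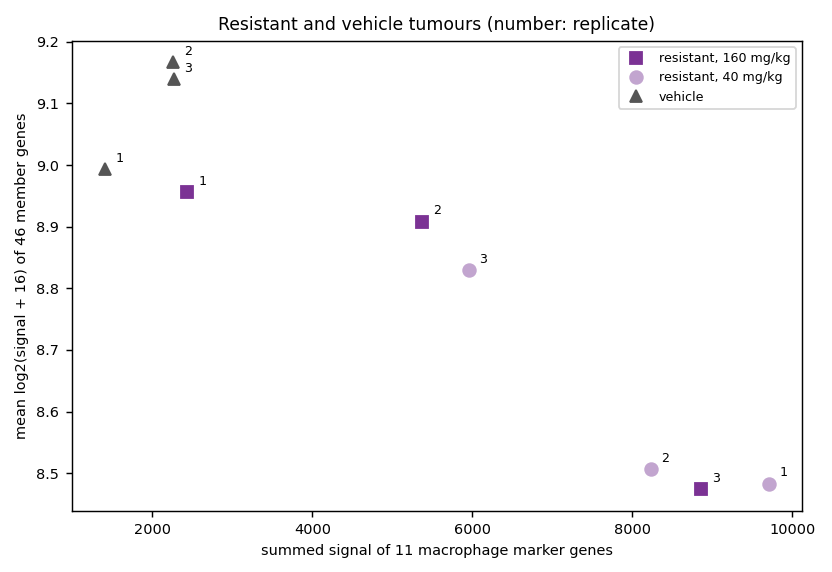
Mean log2(signal + 16) of the 46 member genes against the summed signal of 11 macrophage marker genes for the 6 resistant and 3 vehicle arrays, numbered by replicate. The 3 resistant arrays with the highest macrophage sums, 8230 to 9709, have the lowest member means, 8.474 to 8.506, and vehicle arrays sit at the upper left.

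Between the doses of the resistant groups limma called 0 of 46 members, and 9 had an unadjusted p under 0.05. At the adjusted threshold 2.8% of all genes were called in either direction, which is no background for the unadjusted count. The median difference, 160 mg/kg minus 40 mg/kg, was 0.216, against -0.015 over all tested genes. Pola2 had the largest difference, with 297.8, 280.2 and 189.7 in 160 mg/kg and 180.4, 142.5 and 165.9 in 40 mg/kg resistant tumours (0.59 ± 0.16, adjusted p = 0.06). Its groups did not overlap. Leaving out 160 mg/kg replicate 3 gave 7 calls, and leaving out 40 mg/kg replicate 1 or replicate 3 gave 1 each.

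Set against sensitive tumours at 48 h, members were higher in 45 of 46 cases in each resistant group and lower in 0. Across all genes 17.8% were higher in the 40 mg/kg and 17.6% in the 160 mg/kg comparison. These comparisons share the 48 h arrays, and at 160 mg/kg the dose differs as well. Rrm2 read 3535, 2438 and 1472 in 160 mg/kg and 1807, 1693 and 2750 in 40 mg/kg resistant tumours, against 293.8, 163.6 and 206.3 in 48 h drug tumours (3.34 ± 0.22 and 3.15 ± 0.22, adjusted p = 5.3e-11 and 1.5e-10). Orc3 was the gene not called (0.28 and 0.30, adjusted p = 0.088 and 0.067). Leaving out an array kept 43 to 45 calls at 160 mg/kg and 37 to 44 at 40 mg/kg. Summed macrophage signal was 2437 to 8860 and 5956 to 9709 in 160 mg/kg and 40 mg/kg resistant tumours, against 22636 to 30430 in 48 h drug tumours. In the same order, fibroblast and matrix sums were 4593 to 20452 and 13051 to 17959, against 29420 to 42032. Neuronal sums were 4277 to 6000 and 4082 to 6156, against 16364 to 17533. The part of these markers' cells was not tested.

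The controls were set against each other by the same test. Between 4 h vehicle and vehicle with no stated time limma called 0 of 46 members, 1 had an unadjusted p under 0.05 (Pola1, 0.41), and the median was 0.044. Across all genes 0.201% were called. Comparisons at 24 h, at 48 h and in the resistant groups share the 3 vehicle arrays, and those at 4 h and 8 h share the 2 arrays of 4 h vehicle.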

How the data were processed

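Per the labels, tumour RNA was labelled with biotin, and the submitters' processing notes name MAS5, with no version. The authors deposited linear signal intensity for 45101 probe sets on 23 arrays, and its 2% trimmed mean was 150 on every array. The design text names Mouse Genome 430A 2.0, whereas 45101 probe sets are the layout of Mouse 430 2.0.

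Arrays were grouped by their description. The 64 control probe sets were left out. Signals were taken as log2(signal + 16), and 35069 probe sets whose signal exceeded the 40th percentile on 2 or more arrays were tested. Symbols came from the platform annotation: 34958 probe sets have 1 symbol, 932 several and 9211 none. Probe sets with suffix _x_at, _s_at or _a_at can share sequence with other transcripts, which applies to the brightest probe set of Cdc7, Gins2, Pold1, Pole, Rfc3, Rpa1, Fen1, Rnaseh2a, Rrm2 and Ccne1. One model with a mean for each of 8 groups was fitted with limma 3.58.1 in R 4.3.3 (with data.table, version 1.17.8), with eBayes and trend, 15 residual and 8.5 prior degrees of freedom. Two-sided p-values were adjusted by Benjamini-Hochberg within each of 13 comparisons. The fit was tested on simulated data.

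Any member could be named. Members, lists and comparisons were chosen with earlier results of these data known. Each array was left out in turn. Other alternatives were quantile normalization, another offset (1 or 64), the filter dropped or raised to the 60th percentile, eBayes without trend, a fit of only the compared arrays, all 5 vehicle arrays as control, the mean of a gene's probe sets (p-values then adjusted over genes, not probe sets), and a block for the identifier run or the replicate number. The 4 h vehicle as control of later groups was chosen after seeing the data. Same-numbered arrays of different groups did not deviate together (correlation of deviations -0.115 to 0.118 over 70 pairs, 1 above 0.1), so the numbers were not taken to pair samples.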

Additional observations from a re-analysis of the deposited data

Results flagged for a closer look

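For some members, the difference from vehicle was not the same at neighbouring times of treatment. Between 8 h and 4 h of the drug, 19 of 46 members differed by limma, all lower at 8 h, against 0.602% of all genes lower in that step, and 8 of the 19 calls held with any array left out. Between 48 h and 24 h, 10 differed, with 6 higher and 4 lower at 48 h. The 10 of 46 are no larger a share than the 25% of all genes called in that step, and 5 of the 10 calls held with any array left out. Each is a test of the difference itself, drug arrays against drug arrays.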

How the results depend on the processing

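Of 215 recomputed counts of called members, 190 stayed within 1.5 times the reported count and 25 did not. With any array left out, the counts ranged from 12 to 26 at 8 h against 4 h vehicle (27 with all arrays), 8 to 15 for 8 h against 4 h of the drug (19), 27 to 33 for 24 h against 8 h (32), 6 to 10 for 48 h against 24 h (10), 7 to 26 for 40 mg/kg resistant against vehicle (18), 0 to 4 for 160 mg/kg resistant against vehicle (0) and 0 to 7 between the resistant doses (0). Without the trend in eBayes, 11 members were called for 8 h against 4 h of the drug, 6 for 48 h against 24 h and 11 for 40 mg/kg resistant against vehicle. With the identifier run as a block, 21 were called for 24 h against 8 h. With the replicate number as a block, 4 were called for 48 h against 24 h and 1 between the resistant doses, and no other count moved by over 1.5 times, though shared numbers did not pair these samples. For 160 mg/kg resistant tumours, all 5 vehicle arrays as control gave 2 calls and the 4 h vehicle alone 1. Between the resistant doses, an offset of 64 and the 60th percentile gave 1 call each. The cause of these moves was not tested. Of 1892 recomputed values for 112 named pairs of gene and comparison, 0 changed sign, 82 lost a call and 43 gained one. Quantile normalization put the median of all tested probe sets at -0.062 for 48 h against vehicle, where it was 0.041, and kept all 46 calls. MAS5 signals carry no counting error, and those under the 40th percentile of an array, 18.7 to 28.6, are dim.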
